A study of Gallus gallus with 6 samples.

Results

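PDGFRA-positive barcodes, taken as mesenchyme, were compared between the frontonasal prominence and the somites of the chicken embryo. The members were chosen by 5 measured genes: a cell barcode entered if it held 1 or more UMIs (unique molecular identifiers, counted transcript molecules) of PDGFRA and 0 UMIs of each of EPCAM, SOX10, ELAVL4 and CDH5, which mark epithelium, glial neural crest, neurons and endothelium. Of 17268 barcodes, 1174 met this rule (6.80%), 614 of them among 9006 nasal barcodes and 560 among 8262 somite barcodes. The 6 libraries were made by droplet-based 3′ single-cell RNA sequencing of untreated chicken embryos of the commercial Hubbard stock. Each was pooled from several embryos at 1 stage, with no genetic change in any group. The paper gives both sexes as included, but embryos were not sexed before collection, so the make-up of each pool is not known. The nasal group was the frontonasal prominence, sampled at HH15, HH18 and HH22 (stages of the Hamburger and Hamilton series), and the somite group was the dorsal brachial trunk at HH12, HH15 and HH20. Each stage gave 1 library, so the 3 stages of a location stood as its replicates, and the spread within a location includes change with stage. The nasal stages were on average later, and HH15 was the only stage sampled at both locations.

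PDGFRA is a receptor tyrosine kinase for platelet-derived growth factors and is carried by most loose embryonic mesenchyme. Mesenchyme of the frontonasal prominence comes largely from cranial neural crest and builds the facial skeleton and connective tissue. Mesenchyme around the somites comes from mesoderm: the ventral part of each somite, the sclerotome, gives rise to vertebrae and ribs, the dermomyotome gives rise to dermis and muscle, and the neighbouring lateral plate gives rise to limb and body wall. The cranial crest of the face is known to lack HOX gene expression, whereas trunk mesoderm carries HOX genes according to its axial level.

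By library, the members were 182 at nasal HH15, 324 at nasal HH18 and 108 at nasal HH22. They were 291 at somite HH12, 163 at somite HH15 and 106 at somite HH20. Shares of all barcodes ran from 5.11% at somite HH15 to 9.11% at somite HH12. PDGFRA itself was sparse, with 1021 members at exactly 1 UMI, 135 at 2 UMIs and 18 at 3 or more. Another 140 barcodes held PDGFRA and were left out for a UMI of an excluded gene, 119 of them from somite and 21 from nasal libraries. Median depth per member ran from 2212 to 3372 UMIs, and summed member UMIs per library ran from 389304 at somite HH20 to 1200077 at nasal HH18. Between libraries, 169 of 17097 barcode sequences occurred more than once, with 2 to 22 shared by each pair of libraries.

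Members were compared with other barcodes on mesenchymal genes that the rule did not use. Barcodes just outside the threshold, with 0 PDGFRA UMIs, held PRRX1, a homeobox factor of mesenchyme, at 41.5 to 167 CPM (counts scaled to a total of 1000000 UMIs), and those just inside, with 1 UMI, at 64.8 to 228. TWIST1, a factor of mesenchymal identity, ran from 16.3 to 40.5 outside and from 34.7 to 88.0 inside, and COL1A2, a chain of type I collagen, from 34.8 to 102 outside and from 89.4 to 203 inside. Within each of the 6 libraries all 3 genes were higher just inside than just outside the threshold. The outside set was every barcode with 0 PDGFRA UMIs that met the exclusions, of any cell type, 1116 at nasal HH22. Red blood cell barcodes, defined below, were not removed from it. They numbered 202 at nasal HH22 and 159 at somite HH20, at median depths of 13970 and 11230 UMIs. Their UMIs lower the CPM outside, and levels without them were not tested, so the order does not establish the label. COL3A1, a chain of type III collagen, was higher inside in the 3 somite libraries but lay between 0 and 6.93 CPM inside at the nasal stages.

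The share of barcodes with a PDGFRA UMI was then set beside classes that should lack it. Red blood cell barcodes, with 1000 or more globin UMIs per 10000, held PDGFRA in 9 of 601 cases (1.498%), at median depths of 6717 to 13970 UMIs against 2233 to 3474 for all barcodes. Among EPCAM-positive barcodes the share was 1.03% and 1.58% at nasal HH15 and HH18, and 0 of 51 at nasal HH22. At somite HH12 it was 10.8% (95% exact interval 8.04 to 14.0), and ELAVL4-positive barcodes reached 13.0% (9.02 to 17.98), against 11.4% of all barcodes in that library. EPCAM-positive barcodes held PDGFRA in 1.77% (0.484 to 4.47) and 2.60% (0.316 to 9.07) of cases at somite HH15 and HH20. ELAVL4-positive barcodes held it in 1.60% and 1.43% at nasal HH15 and HH18 and in 4.93% (2.005 to 9.89) at nasal HH22, against 8.17% of all barcodes there. At somite HH15 and HH20 they held it in 5.42% (2.74 to 9.49) and 5.54% (3.51 to 8.27), against 5.67% and 7.14% of all barcodes. The share of all barcodes thus lay inside the ELAVL4 interval in the 3 somite libraries and nasal HH22, and inside the EPCAM interval at somite HH12 and HH20, so members of these libraries are named by the rule rather than by cell type. These intervals cover counting error only.

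**Figure D1:**
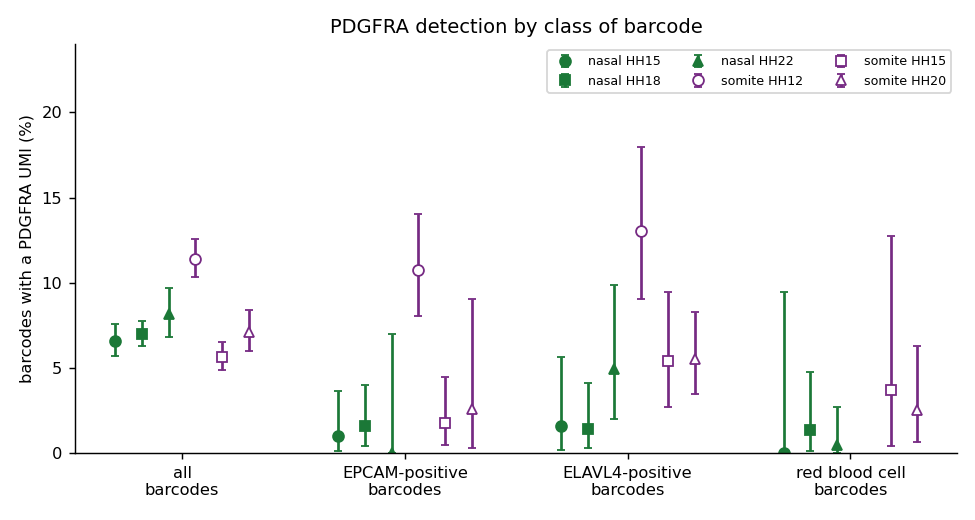
Share of barcodes with 1 or more PDGFRA UMIs (vertical axis, percent) among all barcodes, EPCAM-positive, ELAVL4-positive and red blood cell barcodes; points are libraries (filled nasal, open somite) and bars are 95% exact binomial intervals. Red blood cell barcodes of somite HH12 are left out because there were fewer than 10. The somite HH12 point stands at 10.8% among EPCAM-positive and 13.0% among ELAVL4-positive barcodes, close to its 11.4% among all barcodes.

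UMIs of the members were summed per library, and the 3 nasal sums were compared with the 3 somite sums by edgeR's quasi-likelihood test over 5232 genes that passed its filter on low counts. At a Benjamini-Hochberg adjusted p under 0.05, 100 genes were called, 1.91% of those tested. Of these, 42 were higher in nasal members (0.803%) and 58 were higher in somite members (1.11%). When libraries were scaled to total counts alone, the split was 52 higher in nasal and 42 higher in somite. Without an adjustment, 639 genes had a p under 0.05, and in 902 genes (17.2%) the 3 nasal and 3 somite values did not overlap. The median log2 difference over all tested genes was 0.01. The gene lists named below, chosen with earlier results known, held 37 of the 100 calls, from 273 tested genes. Leaving out nasal HH18 reduced the calls to 26 and leaving out nasal HH15 reduced them to 55, whereas leaving out nasal HH22 or somite HH20 gave 250 and 184. Requiring 2 PDGFRA UMIs left 15 calls of 1027 genes tested, in 153 members. In sums of this kind, fewer cells of a type and less RNA per cell cannot be told apart.

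**Figure D2:**
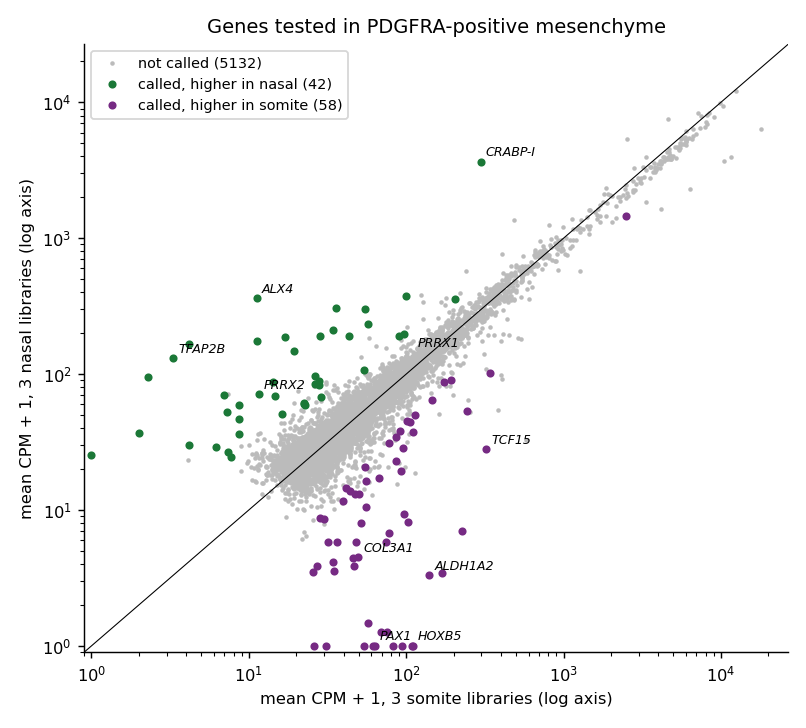
Mean level of each of the 5232 tested genes over the 3 somite libraries (horizontal, CPM plus 1, log axis) and over the 3 nasal libraries (vertical, same scale); green points were called higher in nasal, purple points higher in somite, grey points not called, and the line marks equal levels. A row of purple points lies at a nasal level of 0, with HOXB5 and PAX1 among them, whereas CRABP-I and ALX4 lie far above the line and PRRX1 lies near it.

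Nasal members were set apart by transcription factors of cranial neural crest. From here on, CPM refer to trimmed-mean scaled library totals. ALX4, a homeobox factor of the frontonasal skeleton, stood at 412, 410 and 256 CPM at nasal HH15, HH18 and HH22, and at 5.3, 25.4 and 0 CPM at somite HH12, HH15 and HH20. The groups did not overlap, and the log2 difference was 5.16 (SE 0.52, adjusted p = 0.000753). ALX1, a related factor needed for the upper face, stood at 126, 175 and 265 CPM in nasal members and at 0.9, 33.2 and 48.1 CPM in somite members. Its log2 difference of 3.17 (SE 0.68) passed with an adjusted p of 0.0448 and was lost under 7 of 19 alternatives, the omission of nasal HH15, nasal HH18 or somite HH15 among them.

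TFAP2A and TFAP2B, AP-2 factors that act in neural crest and ectoderm, had the largest called differences toward the nasal side among genes with a mean of 50 CPM or more in 1 location and no overlap. TFAP2A was measured at 119, 105 and 56.9 CPM in the nasal libraries and at 0, 3.9 and 0 CPM in the somite libraries (log2 difference 6.32, SE 0.66, adjusted p = 0.000911). TFAP2B was measured at 154, 160 and 75.8 CPM against 0, 3.9 and 3.0 CPM (6.27, SE 0.61, adjusted p = 0.000753). For both genes nasal HH22 was the lowest nasal library and still lay above the highest somite library. SOX8, a SoxE factor of neural crest, stood at 187, 144 and 114 CPM against 3.5, 3.9 and 48.1 CPM, with a log2 difference of 3.56 (SE 0.64, adjusted p = 0.0182) that did not pass in DESeq2 or without any one of nasal HH15, nasal HH18, somite HH12 and somite HH15.

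Of the 18 listed factors of cranial crest, 8 could be tested and 5 were called, all higher in nasal members; the median log2 difference of the 8 was 3.36, against 0.01 over all tested genes. All 5 called factors could pass the filter on low counts only with the nasal libraries, so this count and median are a description. MSX1 and ETS1 were among the 3 that did not pass. MSX1, a homeobox factor of facial mesenchyme, was at 23.0 and 23.7 CPM at nasal HH15 and HH18 and at 166 CPM at nasal HH22, against 0 to 11.5 CPM in somite libraries, so that 1 library carried most of its nasal level. MSX1 had an adjusted p of 0.183. Six2, a homeobox factor of facial mesenchyme spelled in this way in the annotation, stood at 84.7, 124 and 284 CPM against 3.5, 0 and 6.0 CPM (log2 difference 5.63, SE 0.68, adjusted p = 0.00204). Its partner EYA1, a transcriptional coactivator, was also higher in nasal members, at 35.9, 34.0 and 35.5 CPM against 12.3, 7.8 and 3.0 CPM, and it was lost under 5 alternatives. Six2 and EYA1 could also pass the filter on low counts only with the nasal libraries.

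Other genes with large nasal differences encode matrix, membrane and carrier proteins. CRABP-I, a cytosolic retinoic acid-binding protein, was by far the most abundant of them, at 4848, 4255 and 1905 CPM in nasal members and at 30.0, 260 and 598 CPM in somite members. The values came closest at the latest stages, and the log2 difference of 3.67 (SE 0.79, adjusted p = 0.0448) was lost without nasal HH15, nasal HH18 or somite HH15. THBS4, a matricellular thrombospondin, was at 122, 190 and 216 CPM against 5.3, 13.7 and 12.01 CPM (4.26, SE 0.37, adjusted p = 0.000726). CYTL1, a secreted cytokine-like protein linked to cartilage, was at 424, 239 and 258 CPM against 5.3, 21.5 and 78.1 CPM (3.52, SE 0.62, adjusted p = 0.0176), and its call was lost under 5 alternatives. The anthrax toxin receptor ANTXR1 and the membrane skeleton protein EPB41L3 completed this group, with log2 differences of 4.18 and 3.79, and the call of ANTXR1 was lost under 2 alternatives, the omission of nasal HH18 among them. PRRX2 was held at 76.1, 68.7 and 66.3 CPM in nasal members and at 0.9, 9.8 and 21.0 CPM in somite members (3.25, SE 0.58, adjusted p = 0.0176), and its call was lost without nasal HH15, nasal HH18 or somite HH15. Apart from CRABP-I, these genes could pass the filter on low counts only with the nasal libraries.

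**Figure D3:**
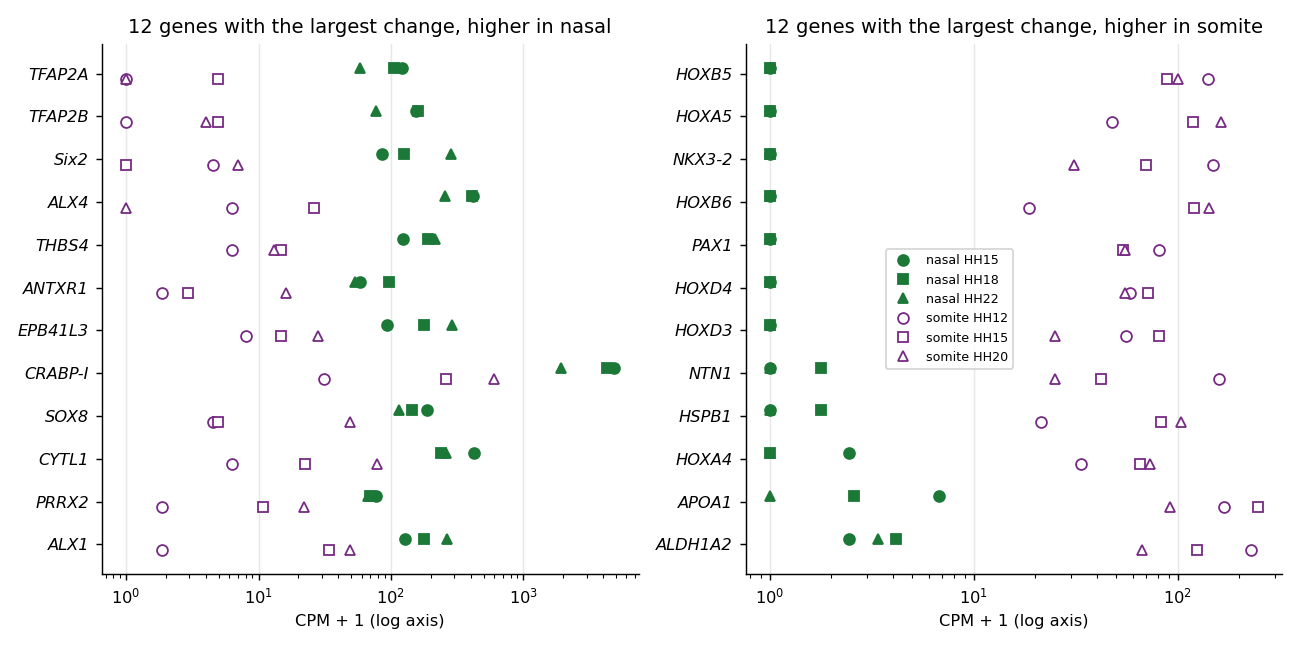
Levels of the 12 genes with the largest called differences in each direction, among those with a mean of 50 CPM or more in 1 location and no overlap between locations (horizontal axis, CPM plus 1, log axis); each point is 1 library, filled green for nasal and open purple for somite, with the marker shape giving the stage. Nasal points of HOXB5, HOXA5, NKX3-2, HOXB6, PAX1, HOXD4 and HOXD3 all lie at 0 CPM, whereas SOX8 and ALX1 stand at 48.1 CPM each in somite HH20, below their lowest nasal values of 114 and 126 CPM.

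Somite members were set apart by HOX genes. HOXB5 held 0 UMIs in all 3 nasal libraries and stood at 140, 87.9 and 99.1 CPM at somite HH12, HH15 and HH20, which was at least 95.2-fold higher when the nasal level is set at a floor of 3 UMIs over the 3 libraries together (adjusted p = 0.000726). HOXA5 was likewise at 0 in nasal members and at 46.7, 117 and 162 CPM in somite members, at least 67.1-fold higher (adjusted p = 0.00376). HOXB6 was at 0 and at 17.6, 119 and 141 CPM, at least 51.4-fold higher (adjusted p = 0.0266), with its call lost without nasal HH15, nasal HH18 or somite HH15. HOXD4, HOXD3 and HOXA3 were at 0 in nasal members and were at least 47.8-fold, 44.6-fold and 22.5-fold higher in somite members. HOXA4 was the remaining called member of the family, with 1 UMI at nasal HH15 and 32.6, 64.5 and 72.1 CPM in the somite libraries.

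Over the whole HOX family, 36 genes were in the annotation. Somite members held 1531 HOX UMIs from 24 of them, and nasal members held 3 HOX UMIs from 3 of them. For 21 genes somite members had UMIs and nasal members had none. Only 7 of the 36 passed the filter on low counts, and they could pass only through the somite libraries, so the 7 calls toward somite add nothing to the UMI totals. Some HOX genes were lower at somite HH12 than at the later somite stages. HOXA7 was at 10.6 CPM at HH12 and at 182 and 177 CPM at HH15 and HH20, and HOXA6 was at 4.4, 115 and 132 CPM. Neither HOXA7 nor HOXA6 was tested, and with 1 library per stage these values have no replicate check.

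Factors of the sclerotome and of the paraxial mesoderm, the tissue that forms the somites, were next. PAX1, a paired-box factor of sclerotome, was at 0 in nasal members and at 79.4, 52.8 and 54.1 CPM in somite members, at least 54.2-fold higher (adjusted p = 0.000753). NKX3-2, a homeobox factor that promotes axial cartilage, was at 0 and at 147, 68.4 and 30.0 CPM, at least 85.2-fold higher (adjusted p = 0.00599), and it failed without nasal HH18. Those 2 were the genes tested among 10 listed sclerotome factors, and they could pass the filter only through the somite libraries, so their calls add nothing to the UMI totals of the list, 15 in nasal and 399 in somite members. PAX9, which was not tested, was at 0, 0 and 4.7 CPM in nasal and at 10.6, 27.4 and 39.0 CPM in somite members.

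TCF15, a basic helix-loop-helix factor of early somites also called paraxis, was at 28.7, 37.9 and 14.2 CPM in nasal members and at 654, 188 and 114 CPM in somite members (log2 difference -3.50, SE 0.61, adjusted p = 0.0158). MEOX1, a homeobox factor of the somite, was at 1.4, 7.1 and 9.5 CPM against 506, 115 and 57.1 CPM (-5.33, SE 0.88, adjusted p = 0.0115). Both were highest at somite HH12, and both calls were lost without nasal HH15 and without nasal HH18. MEOX2, its paralogue, was at 0 in nasal members and at 18.5, 23.5 and 33.0 CPM in somite members, and its call was lost without nasal HH18. PAX7, known both in dermomyotome and in neural crest, went the other way, at 60.3, 48.2 and 40.3 CPM in nasal members against 21.2, 9.8 and 15.0 CPM (1.59, SE 0.33, adjusted p = 0.0347). Its call was lost under 4 alternatives. Of 12 listed factors of paraxial mesoderm and dermomyotome, 4 were tested, 3 of them called toward somite and PAX7 toward nasal. The 3 could pass the filter on low counts only with the somite libraries, and PAX7 only with the nasal libraries. This count is therefore a description.

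Genes of retinoid uptake and synthesis were among those higher in somite members. ALDH1A2, which makes retinoic acid in the trunk, was at 1.4, 3.2 and 2.4 CPM in nasal members and at 227, 123 and 66.1 CPM in somite members (log2 difference -5.78, SE 0.58, adjusted p = 0.000753). STRA6, a retinol uptake receptor, was at 4.3, 3.2 and 14.2 CPM against 164, 64.5 and 75.1 CPM (-4.18, SE 0.55, adjusted p = 0.00376). RDH10, which oxidises retinol, was at 1.4, 4.7 and 19.0 CPM against 186, 60.6 and 42.0 CPM (-3.95, SE 0.72, adjusted p = 0.0202), with its call lost without nasal HH15 or nasal HH18. RBP5, a cellular retinol-binding protein, was at 68.9, 80.6 and 152 CPM against 331, 299 and 394 CPM (-1.81, SE 0.27). The calls of STRA6 and RBP5 were lost without nasal HH18. Of 7 retinoid genes tested, these 4 were called higher in somite, CRABP-I was called higher in nasal, and RARB, a retinoic acid receptor, and CRABP2 were not called. ALDH1A2, STRA6 and RDH10 could pass the filter on low counts only with the somite libraries, so this count is a description.

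Further genes with large somite differences included APOA1, an apolipoprotein, at 5.7, 1.6 and 0 CPM in nasal members and 167, 246 and 90.1 CPM in somite members (log2 difference -5.98, SE 0.56, adjusted p = 0.000753). NTN1, the guidance cue netrin 1, held 1 UMI in nasal members and stood at 158, 41.0 and 24.03 CPM in somite members (-7.14, SE 1.07, adjusted p = 0.00642). HSPB1, a small heat shock protein, also held 1 nasal UMI, against 20.3, 82.1 and 102 CPM (-6.71, SE 1.001, adjusted p = 0.00642). NTN1 and HSPB1 were lost without nasal HH18. APOA1, NTN1 and HSPB1 could pass the filter on low counts only with the somite libraries, so their calls are a description.

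Most general mesenchymal factors tested were not called, whereas the collagen COL3A1 was called higher in somite members, as given below. PRRX1 was at 91.9, 85.3 and 253 CPM in nasal members and at 88.2, 160 and 78.1 CPM in somite members, and the groups overlapped (log2 difference 0.33, SE 0.42, adjusted p = 0.835). TWIST1 was at 30.2, 33.2 and 97.1 CPM against 82.9, 44.9 and 81.1 CPM (-0.51, SE 0.43, adjusted p = 0.716). SNAI1, a factor of epithelial to mesenchymal transition, ran from 20.1 to 87.3 CPM across the 6 libraries and was not called. Of 8 pan-mesenchymal factors tested, PRRX2 was the only one called, beside 1.91% of all tested genes. It could pass the filter on low counts only with the nasal libraries. The median log2 difference of the 8 was 0.19. TWIST2, EBF1 and EBF2 of the same list were not tested. They held 15, 12 and 6 UMIs in nasal members and 48, 6 and 45 in somite members. With 3 libraries a side the non-calls of the tested factors do not show equal levels.

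Cartilage genes were not called by edgeR, although 3 had an unadjusted p under 0.05 and DESeq2 called 1, and all 4 tested had lower fitted levels in nasal members, with a median log2 difference of -1.27. SOX9, which directs cartilage formation, was at 76.1, 72.7 and 152 CPM in nasal members and at 146, 151 and 285 CPM in somite members (-0.97, SE 0.34, adjusted p = 0.237). CNMD, chondromodulin, was at 77.6, 35.5 and 42.6 CPM against 34.4, 307 and 421 CPM, with an adjusted p of 0.188. Somite HH12 held as little CNMD as the nasal libraries and the later somite stages held more. HAPLN1, which links hyaluronan to proteoglycan, was at 15.8, 35.5 and 54.5 CPM against 73.2, 107 and 129 CPM (-1.56, SE 0.37, adjusted p = 0.0675), and SOX5, a partner of SOX9, was at 24.4 to 28.4 CPM against 35.2 to 36.2 CPM. Both missed the threshold, SOX5 with an edgeR adjusted p of 0.547. Neither overlapped between locations, which held for 17.2% of all tested genes. SOX9 and HAPLN1 each passed under 4 alternatives and CNMD under 2. None of the osteogenic genes passed the filter.

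Among matrix genes, 27 were tested, of which 2 passed toward nasal and 1 toward somite, beside 1.91% called among all tested genes. COL12A1, a collagen that binds fibrils, was at 96.2, 79.8 and 75.8 CPM against 10.6, 23.5 and 42.0 CPM (log2 difference 1.96, SE 0.40, adjusted p = 0.033). GPC3, a glypican proteoglycan, was at 279, 190 and 99.5 CPM against 20.3, 74.3 and 33.0 CPM (2.26, SE 0.47, adjusted p = 0.0363). COL3A1 was at 5.7, 4.7 and 0 CPM against 26.5, 70.4 and 48.1 CPM (-3.41, SE 0.57, adjusted p = 0.0126). The calls of COL12A1 and GPC3 were lost under 5 and 6 alternatives and that of COL3A1 under 2, the omission of nasal HH18 among them in each case. COL12A1 could pass the filter on low counts only with the nasal libraries and COL3A1 only with the somite libraries, so the count of calls is a description. COL1A1, the other chain of type I collagen, was at 297, 384 and 1026 CPM in nasal and at 116, 166 and 438 CPM in somite members and was not called (adjusted p = 0.353); in both locations the latest stage was highest. Fibronectin, FN1, was at 34.0 to 126 CPM in nasal and at 164 to 218 CPM in somite members and missed the threshold (-1.63, SE 0.39, adjusted p = 0.0673). The small leucine-rich proteoglycans LUM and DCN overlapped between locations, at 204 to 501 against 30.9 to 213 CPM and at 301 to 509 against 83.8 to 544 CPM.

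Calls in signalling pathways are to be read beside the 1.91% called among all tested genes. WNT5A, a ligand of growth and convergence, was at 181, 185 and 334 CPM in nasal members and at 40.6, 56.7 and 72.1 CPM in somite members (log2 difference 2.09, SE 0.31, adjusted p = 0.00599), and the WNT inhibitor FRZB was at 52.1 to 65.6 CPM against 14.1 to 29.3 CPM (1.60, SE 0.31, adjusted p = 0.0284). The call of WNT5A was lost with a minimum of 2 PDGFRA UMIs and that of FRZB under 4 alternatives, the omission of nasal HH15, nasal HH18 or somite HH12 among them. These were the 2 calls among 11 WNT genes, and SFRP1, a related inhibitor, missed the threshold (1.46, SE 0.34, adjusted p = 0.0626). IL17RD, an inhibitor of FGF signalling also called SEF, was at 81.9, 63.2 and 59.2 CPM against 12.3, 13.7 and 15.0 CPM (2.35, SE 0.28, adjusted p = 0.00209) and was the 1 call among 8 FGF genes; it passed under every alternative that tested it. The receptors FGFR2, at 61.6 to 86.2 against 37.1 to 42.0 CPM, and FGFR3, at 14.2 to 23.0 against 41.0 to 137 CPM, pointed in opposite directions without passing. The ligand TGFB2 was at 15.8 to 30.8 CPM in nasal and 58.2 to 108 CPM in somite members (-2.02, SE 0.34, adjusted p = 0.0126), and its call was lost under 4 alternatives, the omission of nasal HH15, nasal HH18 or somite HH15 among them. ID3, a target of BMP signalling, was at 71.9 to 109 against 129 to 205 CPM (-1.06, SE 0.23, adjusted p = 0.0487) and was lost under 9 of 18 alternatives. Those 2 were the calls among 6 BMP and TGF-beta genes, both higher in somite. IL17RD and FRZB could pass the filter on low counts only with the nasal libraries, and TGFB2 only with the somite libraries. The counts of calls in these lists are therefore a description.

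Of 6 Hedgehog genes and 5 Notch genes, 0 were called in each; at an unadjusted p under 0.05 edgeR gave 1 and 3, and DESeq2 called 0 in each. PTCH1, receptor and target of Hedgehog, was at 7.1 to 15.8 CPM in nasal and 24.03 to 41.5 CPM in somite members (-1.41, SE 0.35, adjusted p = 0.0814). Of 16 guidance and chemokine genes, 3 were called, beside 1.91% of all tested genes. All 3 were higher in somite: NTN1, the semaphorin SEMA6A at 14.4 to 42.6 against 74.3 to 120 CPM, and the plexin PLXNA2 at 2.4 to 10.1 against 39.0 to 74.1 CPM. All 3 calls were lost without nasal HH18, and that of SEMA6A also without nasal HH15 or somite HH12 and with thinning to 2000 UMIs. The 3 genes could pass the filter on low counts only with the somite libraries, so the count of calls is a description. Of 6 adhesion genes 0 were called by edgeR, 2 had an unadjusted p under 0.05 and DESeq2 called 0. CDH11, a cadherin of mesenchyme, was at 213 to 278 CPM in nasal and 64.4 to 207 CPM in somite members (1.08, SE 0.34, adjusted p = 0.188). The PDGF ligands and PDGFRB did not pass the filter, and they held 25 UMIs in nasal and 37 in somite members. Among housekeeping lists, 31 cell cycle, 15 glycolytic, 71 ribosomal protein and 12 mitochondrially encoded genes were tested. In edgeR 0 were called, beside 1.91% of all tested genes. Of these 129 genes, 7 had an unadjusted p under 0.05, beside 639 of all 5232, and DESeq2 called 1. The ribosomal list also holds kinases of like name, such as RPS6KA2. Of its 71 tested genes, 65 had lower fitted levels in nasal members, with a median log2 difference of -0.20. The list summed to 267600 to 314913 CPM in nasal and 302308 to 370332 CPM in somite members.

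Lineage markers were also counted in single members. These shares come from the same UMIs as the sums and are a description. Any HOX UMI was found in 70.8%, 82.8% and 92.5% of members at somite HH12, HH15 and HH20, and in 1 of 182, 1 of 324 and 1 of 108 at nasal HH15, HH18 and HH22. A UMI of ALX1 or ALX4 was found in 76.4%, 80.2% and 75.9% of nasal members and in 2.41%, 11.04% and 10.4% of somite members. After each member was thinned to 2000 UMIs, which left 976 of 1174 members, HOX shares were 59.7%, 82.1% and 83.02% at the somite stages, and shares with ALX1 or ALX4 were 68.3%, 69.3% and 58.3% at the nasal stages. A UMI of PAX1, PAX9 or NKX3-2 marked 38.1%, 24.5% and 27.4% of somite members, and 0, 0 and 2 nasal members. TCF15 was found in 69.4%, 28.8% and 22.6% of somite members and MEOX1 in 64.3%, 19.0% and 11.3%, so both were most widespread at HH12.

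**Figure D4:**
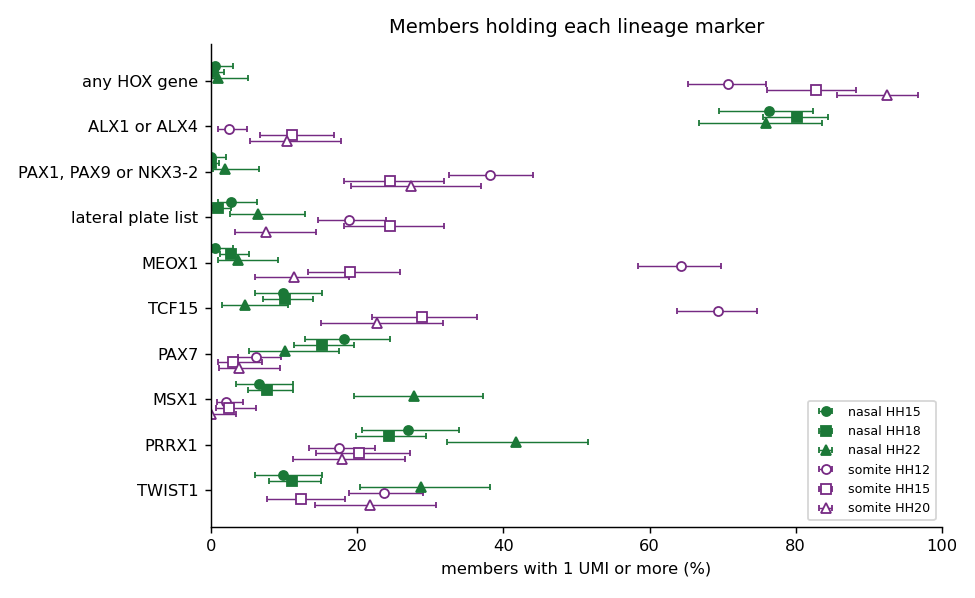
Share of members with 1 UMI or more of each marker or marker group (horizontal axis, percent, at the depth of the deposited libraries); points are libraries, filled green for nasal and open purple for somite, and bars are 95% exact binomial intervals that cover counting error only. HOX genes lie at 70.8% to 92.5% in somite libraries and at 0.309% to 0.926% in nasal libraries, ALX1 or ALX4 at 75.9% to 80.2% in nasal libraries, PRRX1 at 24.4% to 41.7% in nasal and 17.5% to 20.2% in somite libraries, and TWIST1 at 9.89% to 28.7% and 12.3% to 23.7%.

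Somite members were a mixture. Lateral plate genes (HAND1, HAND2, TBX5, GATA4, GATA5, GATA6 or FOXF1) were found in 18.9%, 24.5% and 7.5% of them at HH12, HH15 and HH20, against 0.9% to 6.5% of nasal members. Members with lateral plate genes but no sclerotome, PAX7, MYF5 or MYOD1 UMI numbered 44, 36 and 8, and members with sclerotome genes alone numbered 97, 36 and 28. At 41.2%, 50.3% and 61.3%, the remaining somite members with no UMI of any of the 3 lists were the largest fraction, which depends on depth. The levels that follow are CPM of the summed UMIs of each subset, unscaled and described without a test.

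PRRX1 was at 256, 451 and 174 CPM in somite members with lateral plate genes alone and at 16.6, 18.7 and 21.7 CPM in those with sclerotome genes alone, from 6, 2 and 2 UMIs in the latter. PRRX1 was thus unevenly distributed within the somite libraries. TCF15 and SOX9 had the opposite order: TCF15 was at 846, 347 and 130 CPM in sclerotome-marked members and at 60.7, 21.2 and 0 in lateral plate-marked members, and SOX9 at 335, 356 and 574 against 21.7, 14.1 and 131. CNMD followed SOX9, at 74.7, 805 and 726 CPM in sclerotome-marked members and at 0, 7.1 and 43.5 in lateral plate-marked members. ALDH1A2 was present in both subsets, at 249, 74.9 and 43.3 against 260, 197 and 87.0 CPM, and so was HOXB5, at 147, 65.6 and 86.7 against 204, 134 and 131. The lateral plate-marked values at HH20 come from 8 members. They rest on 4 UMIs of PRRX1, 3 of SOX9, 1 of CNMD, 2 of ALDH1A2 and 3 of HOXB5. At HH15 SOX9 and CNMD rest on 2 UMIs and 1 UMI in that subset.

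KRT18 and KRT7, keratins of simple epithelia, followed the lateral plate marks. In the sums they were at 386 and 157 CPM at somite HH12, at 211 and 104 CPM at somite HH15, and at 9.0 and 0 CPM at somite HH20, against 0 to 2.9 CPM in nasal members. KRT18 was at 1114, 536 and 0 CPM in lateral plate-marked members and at 24.9, 18.7 and 0 in sclerotome-marked members. When all members with a UMI of any of 12 lateral plate and limb-field genes were left out, 847 members remained. These were 417 of 614 nasal and 430 of 560 somite members, so the step removed members of both locations. The 12 genes include TBX2 and TBX3, which held 182 and 109 UMIs in nasal and 39 and 14 in somite members. In this reduced set 93 of 3980 tested genes were called. Of the 100 genes called with all members, 80 were tested here and 70 were called. In that comparison PRRX1 was called higher in nasal members (log2 difference 1.32, adjusted p = 0.0467). The step takes out the lateral plate-marked somite members, which had the higher PRRX1 levels given above, so this call is a description. With all members, TBX3, a T-box factor on that list that is also known in facial mesenchyme, was called higher in nasal members, at 37.3, 48.2 and 52.1 CPM against 5.3, 11.7 and 6.0 CPM (log2 difference 2.63, SE 0.37, adjusted p = 0.00485), and its call was lost without nasal HH18. TBX3 could pass the filter on low counts only with the nasal libraries.

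**Figure D5:**
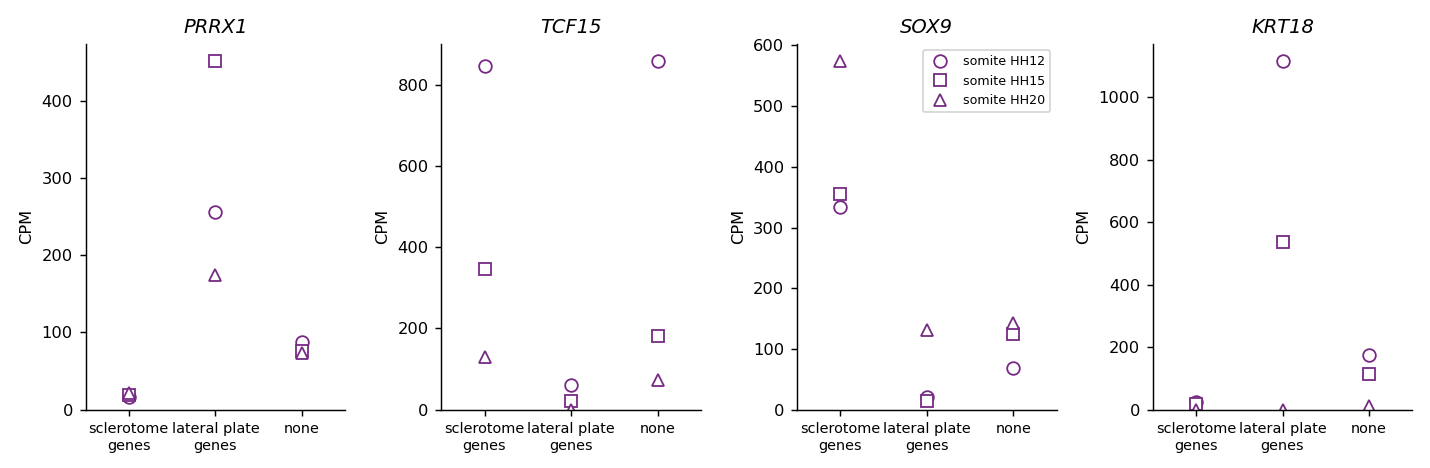
Levels of PRRX1, TCF15, SOX9 and KRT18 (vertical axes, CPM of each subset's own UMIs) in somite members with sclerotome genes only, with lateral plate genes only and with none of the 3 marker lists; each point is 1 somite library. PRRX1 and KRT18 are highest in lateral plate-marked members at HH12 and HH15, and SOX9 is highest in sclerotome-marked members in all 3 libraries.

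Nasal members varied with stage and with marker, described here without a test. Members with an ALX1 or ALX4 UMI held CRABP-I at 5500, 4658 and 2045 CPM at HH15, HH18 and HH22, and those without one at 3877, 3752 and 1323 CPM, while PRRX1 was at 88.0, 80.9 and 217 against 165, 130 and 355. TFAP2B was at 169, 182 and 94.6 CPM in members with ALX1 or ALX4 and at 155, 112 and 9.9 CPM in those without, the last from 1 UMI, and Six2 was at 105, 142 and 299 against 20.6, 80.5 and 217 CPM. PAX7 was found in 18.1%, 15.1% and 10.2% of nasal members and MSX1 in 6.6%, 7.7% and 27.8%. At HH22, 30 members held MSX1, 11 held PAX7 and 5 held both, and MSX1-positive members had PRRX1 at 487 CPM. Six2 was at 180 CPM in MSX1-positive members of that stage and at 17.3 CPM, from 1 UMI, in PAX7-positive members, and SOX9 was at 137 and 0 CPM.

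Markers of other cell types were read over each whole list in the same sums. Blood markers, of which 8 of 15 were matched to 1 annotated gene and all 8 had UMIs in both locations, summed to 353 to 15484 CPM in nasal and 46.7 to 48420 CPM in somite members. The globin HBBR, whose symbol the annotation gives to more than 1 gene, is left out of these sums. They were highest at somite HH20 and lowest at somite HH12, and their part in the location differences was not tested, except that leaving out the red blood cell barcodes, 9 members among them, gave 107 calls that included all 100. Epithelium markers summed to 26.1 to 45.0 CPM in nasal and 33.0 to 650 CPM in somite members, with ESRP1 and RAB25 at 0 throughout. Neuron markers summed to 44.5 to 54.5 against 52.8 to 174 CPM, with NEUROD1 and NEUROD4 at 0 and TUBB3 at 111 CPM at somite HH20 against 33.0 to 37.9 CPM in the other libraries. Neural progenitor markers summed to 206 to 235 against 169 to 387 CPM, with 1 gene of 11 tested. Muscle markers summed to 7.1 to 41.7 against 64.5 to 324 CPM, with ACTC1 at 171 CPM at somite HH20 and 0 in the other 5 libraries, and TNNC1 not called (adjusted p = 0.169). Endothelium markers summed to 66.1 to 133 against 50.8 to 129 CPM, with TIE1 at 0. Glial crest markers other than SOX8 held 4 nasal and 10 somite UMIs. Intermediate mesoderm factors held 5 nasal and 100 somite UMIs, with 0 tested, and of 3 W-linked genes 1 was tested and was not called.

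The location difference in members was compared with the location difference in 1064 EPCAM-positive barcodes with 0 UMIs of PDGFRA, SOX10, ELAVL4 and CDH5 from the same 6 libraries. The difference between the 2 location effects was tested with library as a block, over 6649 genes. It passed in 229 genes (3.44%), in 91 with a positive difference, more nasal in members than in EPCAM-positive barcodes, and in 138 with a negative one. The sign does not say in which of the 2 classes the locations differed. Scaling to total counts gave 160 and 57, and the size factors of DESeq2 gave 75 and 197. TFAP2A was at 84.9 ± 31.6 CPM in nasal and 1.18 ± 2.04 CPM in somite members (SD, n = 3 each), and at 41.3 ± 19.9 and 42.6 ± 12.8 CPM in EPCAM-positive barcodes, a difference of location effects of 6.46 (log2, SE 0.62, edgeR adjusted p = 2.33e-08). CRABP-I was at 3330 ± 1483 and 263 ± 252 CPM in members and at 703 ± 215 and 342 ± 114 CPM in EPCAM-positive barcodes, a difference of 3.23 (SE 0.45). KRT18 was at 0.923 ± 0.802 and 181 ± 169 CPM in members and at 214 ± 57.6 and 294 ± 221 CPM in EPCAM-positive barcodes, a difference of -6.75 (SE 0.46). KRT18 did not pass the filter on low counts in the comparison of members alone. DESeq2 called 81 genes in this comparison and leaving out somite HH12 left 61.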

How the data were processed

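Single-cell 3′ RNA sequencing counts (10x Genomics) were analysed for 6 libraries, 3 nasal and 3 somite, grouped by the tissue labels. The authors ran Cell Ranger on the GRCg6a genome with an extended annotation, and deposited unnormalised UMI counts per gene and barcode. The files hold 16828 genes, 4317 of them without a symbol. PAX3, FOXC1, FOXC2, UNCX and SNAI2 are not analysed here.

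Members and gene lists were chosen with earlier results of these data known. Member UMIs were summed per library and fitted in edgeR 4.0.16 (R 4.3.3; filterByExpr, trimmed-mean scaling, quasi-likelihood test, SE from the log2 difference and its F statistic), with all 5232 genes adjusted together. Depth was 389304 to 1200077 UMIs per sum. Each library is 1 pool of embryos, so p-values measure the spread between 3 pools of different stages. A level against 0 was bounded with a floor of 3 UMIs over a location. Genes near 0 in 1 location could pass the filter on low counts only with the libraries of the other. Intervals were exact Clopper-Pearson at a level of 0.95. Named genes were the 12 with the largest called difference per direction at a mean of 50 CPM or more and no overlap, any listed gene, and the 5 largest per direction for the difference of location effects. Fits were also run on simulated data with 200 changed genes, at 1 fixed spread and with no change between stages. That run does not measure error rates for these libraries.

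Alternatives were a fit in DESeq2 1.42.0, edgeR with the size factors of DESeq2, no scaling factor, no filter on low counts, stage as a covariate, each library left out, the study's quality filters, Scrublet doublets (scanpy 1.11.5) removed, a minimum of 2 PDGFRA UMIs, no exclusion genes, members without lateral plate genes or without PAX7, MYF5 and MYOD1, thinning to 2000 UMIs, and HH15 alone. Doublets were kept in the main fit. Leaving out red blood cell barcodes was chosen after seeing the data.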

Additional observations from a re-analysis of the deposited data

Results flagged for a closer look

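The location difference of 10 genes differed between PDGFRA-positive members and EPCAM-positive barcodes by the test of that difference with library as a block. Values are the nasal minus somite log2 difference in members less the same difference in EPCAM-positive barcodes. They were 6.46 for TFAP2A, 4.92 for TFAP2B, 4.16 for MYL4, 3.23 for CRABP-I and 2.49 for PLXNC1. They were -6.75 for KRT18, -5.99 for ALDH1A3, -5.09 for KRT7, -4.43 for H1F0 and -4.27 for FGF8. MYL4, an embryonic myosin light chain, stood at 144 CPM in nasal and 56.0 CPM in somite members and at 55.6 and 272 CPM in EPCAM-positive barcodes. ALDH1A3, which makes retinoic acid in facial ectoderm, and FGF8, a ligand of facial ectoderm, were low in members of both locations and stood at 50.01 against 0.662 CPM and at 52.9 against 3.33 CPM in EPCAM-positive barcodes. In members ALDH1A3 held 1, 1 and 0 nasal UMIs and 1 UMI at each somite stage (SE 1.64, edgeR adjusted p = 0.0372). KRT18, ALDH1A3, KRT7 and FGF8 did not pass the filter on low counts in the comparison of members alone. ALDH1A3 and FGF8 could pass here only with the EPCAM-positive barcodes, so their values are a description. For H1F0, a linker histone of red blood cells among others, the value was 0.17 when red blood cell barcodes were left out (edgeR adjusted p = 0.935). With 3 libraries in a location, no single library was tested for standing apart.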

How the results depend on the processing

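In the main comparison, 100 genes were called, 42 toward nasal and 58 toward somite. Leaving out 1 library at a time gave 26 to 250 calls, 14 to 81 toward nasal and 12 to 169 toward somite, and for the difference of location effects 61 to 285 calls against 229. With no filter on low counts the calls were 549, 193 and 356. With a minimum of 2 PDGFRA UMIs they were 15, 5 and 10, from 1027 genes tested, and 52 for the difference of location effects. Thinning to 2000 UMIs gave 39, 22 and 17, from 3060 genes tested. DESeq2 gave 119 calls in the main comparison and 81 in the difference of location effects, 12 positive and 69 negative against 91 and 138. In that difference, scaling to total counts gave 160 and 57, no filter on low counts 50 and 156, and leaving out red blood cell barcodes 92 and 208, and leaving out 1 library gave 14 to 115 and 47 to 170. The other alternatives stayed within 1.5 times of the main counts in both comparisons and both directions. Scaling to total counts moved the median log2 difference from 0.01 to 0.11, and the median difference of location effects from 0.06 to 0.26.

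All 50 called genes named here kept their direction under every alternative that tested them, and 19 of them passed in each one. At HH15 alone, all 50 had the same sign. This was fixed in advance, because none of the 50 overlapped between locations in the libraries of the main fit. For the same reason the direction with 1 library left out was nearly fixed. The other alternatives reused UMIs of the same 6 libraries, so the kept directions are not independent evidence. PRRX1 changed sign with stage as a covariate (-0.10) and at HH15 alone (-0.79), and with 1 library left out it ran from -0.30 to 0.71, the lowest without nasal HH22. DCN ran from -0.14, without somite HH12, to 0.89. Neither was called, except that PRRX1 passed without members holding lateral plate and limb-field UMIs (1.32, adjusted p = 0.0467). That step took out somite members with high PRRX1, so the call is a description. Among other genes not called, FN1 passed under 6 alternatives, SFRP1 and FGFR3 under 5 each, LUM and CDH11 under 2 each, and MSX1, COL1A1, PTCH1 and TNNC1 under 1 each. For H1F0 the difference of location effects became 3.48 with a minimum of 2 PDGFRA UMIs and 0.17 without red blood cell barcodes. The cause was not tested. No paired analysis was possible because nasal and somite libraries share no replicate number in the labels. Stage, embryo pool and library cannot be told apart within a location, and genes with few UMIs in sums of 389304 to 1200077 UMIs are not resolved.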

Other observations

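Other called genes, chosen here after their values were seen, are given for each direction. Each could pass the filter on low counts only with the libraries of the location where it was higher, so these calls are a description. TFAP2E, a further AP-2 factor, stood at 25.9, 21.3 and 26.1 CPM at nasal HH15, HH18 and HH22 and at 0 in all 3 somite libraries, at least 15.5-fold higher in nasal members (edgeR adjusted p = 0.00523), and its call was lost without nasal HH18. EDNRA, the endothelin receptor that patterns facial crest, was at 51.7, 67.1 and 54.5 CPM in nasal members and at 6.2, 7.8 and 9.0 CPM in somite members, with a log2 difference of 2.998 (SE 0.32, adjusted p = 0.000979). FBLN5, an elastic fibre protein, was at 24.5 to 43.1 CPM in nasal and at 0 to 3.0 CPM in somite members.

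Toward somite, GPX3, a secreted glutathione peroxidase, was at 5.7, 3.9 and 4.7 CPM in nasal members and at 99.7, 48.9 and 72.1 CPM in somite members, with a log2 difference of -3.98 (SE 0.40, adjusted p = 0.000753). CYP1B1, a cytochrome P450 enzyme, was at 0 to 14.2 CPM against 41.0 to 106 CPM, with its call lost without nasal HH18. IGFBP5, a binding protein of insulin-like growth factors, was at 0 to 9.5 CPM against 17.6 to 69.1 CPM and was lost under 4 alternatives.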
